A study of Homo sapiens with 16 samples.

Results

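Human small cell lung cancer cells of the line NCI-H1688 were given the plant alkaloid sanguinarine together with either of 2 drugs that act on chromatin, and the transcriptomes of the 2 combinations were compared directly. The comparison was chosen from the labels alone and takes in every gene. It uses 4 of the 16 libraries of the series: 2 from cells treated for 24 h with sanguinarine chloride (1 µM) and JQ1 (28 µM, named (+)-JQ-1 in the labels), and 2 from cells treated for 24 h with sanguinarine chloride (1 µM) and panobinostat (60 nM). Sanguinarine is thus common to both sides, and the partner drug is what differs. Cells treated with JQ1 or panobinostat alone, at those doses and that time, gave 2 libraries each and serve as the reference for the partner difference without the alkaloid. The labels call the duplicates biological. A log2 difference below is the JQ1 combination minus the panobinostat combination, so positive values are higher with JQ1.

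JQ1 displaces BET bromodomain proteins from acetylated histones, and BET proteins help to recruit P-TEFb, the kinase complex that releases paused RNA polymerase II. Panobinostat inhibits histone deacetylases and so raises histone acetylation, which can open genes that a cell lineage keeps silent. Sanguinarine is a benzophenanthridine alkaloid that reacts with thiols, and oxidative and amino acid stress responses are known effects of such compounds. In small cell lung cancer, subtypes are usually named by lineage factors, among them NEUROD1 and POU2F3.

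Library titles and treatment labels pointed in different directions, because titles beginning with "S-" carried the labels of the single drugs. HMOX1, heme oxygenase 1, was read in each library as a check. It stood at 1.43 and 1.71 CPM (counts per 1e6 counted reads) in control cells and at 229 and 195 CPM with sanguinarine alone. The libraries labelled as combinations held 674 and 704 CPM (with JQ1) and 195 and 219.6 CPM (with panobinostat), whereas those labelled as single drugs held 9.86 and 9.60 CPM (JQ1) and 8.98 and 8.80 CPM (panobinostat). The treatment labels were followed. Depth was 50448944 to 64060919 counted reads in the 4 combination libraries and 39996881 to 42607877 in the single-drug libraries. In a combination library 3 counts, the limit that a count of 0 allows, corresponded to 0.0468 to 0.0595 CPM, for counting error only. By chi-square per degree of freedom, the duplicates of sanguinarine with panobinostat differed most among the 8 groups of the series (83.81, against 27.18 for sanguinarine with JQ1 and 4.92 to 14.5 elsewhere). By the SD of the log2 difference between duplicates, JQ1 alone differed most (0.65), and the combinations were at 0.529 (JQ1) and 0.59 (panobinostat). On the first principal component of the 8 libraries, which held 65.3% of the variance, the libraries with JQ1 lay at -120.24 to -81.02 and those with panobinostat at 94.08 to 98.39. The second component (15.8%) separated the combinations (-65.77 to -22.68) from the single drugs (36.09 to 54.06). Epithelial markers (KRT8, KRT18, KRT19, EPCAM and CDH1) summed to 4110 to 4380 CPM with JQ1 and 4760 to 4970 CPM with panobinostat, but the members were mixed. KRT18 (960 and 913 against 722 and 827 CPM) and EPCAM (163 and 168 against 91.0 and 129 CPM) stood higher with JQ1. KRT19 stood lower (545 and 489 against 1060 and 853 CPM), and KRT8 and CDH1 did not pass the test described below. Of the defining neuroendocrine factors, INSM1 and NEUROD1 had no reads in the 4 libraries. Summed markers of other cell types stood higher with panobinostat. Leukocyte markers summed to 3.14 to 4.39 CPM with JQ1 and 12.8 to 15.2 CPM with panobinostat, nearly all from CD14, with PTPRC at 0 to 0.0904 CPM. Fibroblast markers summed to 36.4 to 37.9 CPM against 82.8 to 113 CPM, nearly all from COL1A1, and endothelial markers to 1.61 to 1.94 CPM against 13.7 to 18.1 CPM. Their part in the differences below was not tested.

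The partner drug separated the combinations at about the same number of genes in either direction, but the large differences were mostly in 1 direction. Of 22263 genes tested, 11781 (52.9%) differed at an adjusted p under 0.05 by edgeR's quasi-likelihood test: 5651 (25.4%) were higher and 6130 (27.5%) lower with JQ1. Differences over 4-fold were found at 385 genes higher and 2366 genes lower with JQ1. These counts ranged over 354 to 478 and 1863 to 2249 when 1 of the 4 libraries was left out, and 7930 genes (67.3% of those called) kept their call and direction whichever was left out. With so many genes called, a share of called members near 52.9% in the lists below says nothing particular about a list. The called share was larger among protein-coding genes (4722 higher and 4841 lower of 15393). It was larger too at 10 to 100 CPM in the higher combination (3207 and 2366 of 8480) and at 100 CPM and above (1193 and 560 of 2516). The lists hold genes of known proteins, so a share somewhat above 52.9% says little about a list either.

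The excess of large decreases was greatest at low expression. Among the 5809 genes whose mean in the higher combination was under 1 CPM, 1082 were over 4-fold lower with JQ1 and 137 over 4-fold higher. From 1 to 10 CPM the numbers were 934 and 122 of 5458 genes, and from 10 to 100 CPM they were 323 and 87 of 8480. At 100 CPM and above the order turned, with 27 genes over 4-fold lower and 39 over 4-fold higher of 2516. A gene could pass the filter on low counts through the 2 libraries of 1 group. Genes of low expression may thus be tested only because 1 group is high, and these shares are a description. Without the filter 398 genes were over 4-fold higher and 2322 over 4-fold lower. Rows with at least 1 CPM in both libraries of a combination and at most 0.1 CPM in both of the other numbered 107 in favour of panobinostat (78 of them protein-coding) and 0 in favour of JQ1. Of the 107, 61 also had at least 1 CPM in both libraries of panobinostat alone, and 37 showed the whole on and off pattern between panobinostat alone and JQ1 alone. The second library of JQ1 alone had a read at 29841 rows and the first at 24951, at 41363658 and 42607877 counted reads. The part of that library in the count of 37 was not tested. Among RNA classes, long intergenic noncoding RNAs had 273 lower and 95 higher of 1016, whereas protein-coding genes had 4841 lower and 4722 higher of 15393. More genes were detected with panobinostat (29221 and 29296 rows with a read) than with JQ1 (26621 and 26852), although the JQ1 libraries were read more deeply. In bulk RNA, more cells of a kind and more RNA per cell cannot be told apart.

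**Figure D1:**
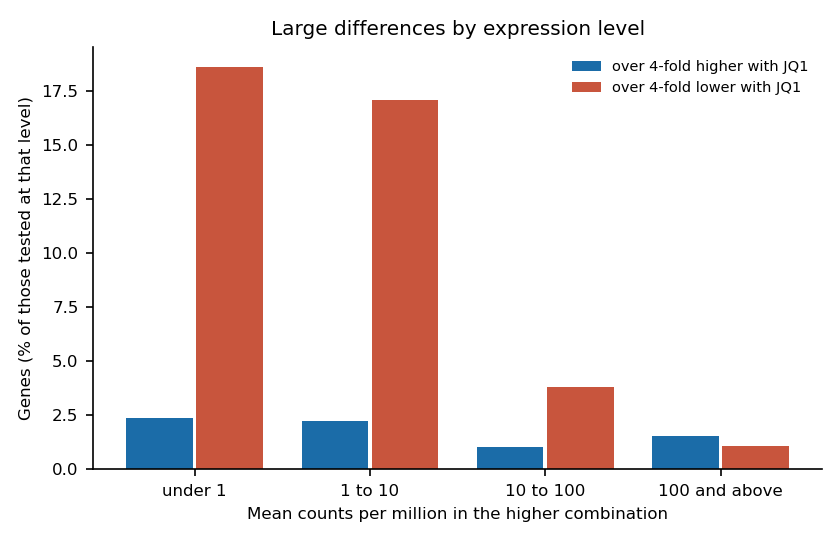
Share of tested genes (vertical axis, percent) that differed over 4-fold between the combinations at an adjusted p under 0.05, by the mean CPM in the higher combination (horizontal axis). Decreases with JQ1 outnumber increases at the 3 lower levels (1082 against 137 genes under 1 CPM), and at 100 CPM and above 39 genes are over 4-fold higher and 27 over 4-fold lower.

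The genes with the largest decreases were near silence with JQ1 and well expressed with panobinostat. STAC2, which encodes an adaptor of voltage-gated calcium channels, had 2 reads over the 2 JQ1 libraries and 1792 over the panobinostat libraries, at 20.7 and 13.2 CPM. The ratio by depth was 1020 in favour of panobinostat (95% exact interval 282 to 8440, counting error only). PADI3, a peptidylarginine deiminase of hair and skin, stood at 0.127 and 0.0468 CPM with JQ1 and at 88.0 and 49.1 CPM with panobinostat. Its log2 difference was -9.44 ± 0.44 (edgeR adjusted p = 1.88e-12), where ± is an approximate standard error that is unreliable for folds this large against few reads. CADM3, an adhesion molecule of neurons, was at 0.0723 and 0.0468 CPM against 26.3 and 19.6 CPM. CYP24A1, the enzyme that degrades active vitamin D, was at 0.343 and 0.172 CPM with JQ1 and 28.0 and 26.8 CPM with panobinostat. Both JQ1 libraries were under 1 CPM at each of these genes, which were chosen for their large differences. The remaining decreases of this set were SERPINB13, PTPRN, GFY, CNTN1, DPYSL5, KCNJ10, NOVA2, ATCAY, KRT23 and INHBA, with log2 differences from -7.38 to -6.05. Several are known from neurons: CNTN1 is a contactin of axons, DPYSL5 a collapsin response mediator, NOVA2 a neuronal splicing factor and PTPRN a protein of dense-core vesicles. KRT23 and SERPINB13 are known from epithelia, and INHBA encodes the activin A subunit.

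The largest increases with JQ1 were smaller in fold and mixed in function. MMP1 (NCBI gene 4312), interstitial collagenase, was at 38.9 and 23.5 CPM with JQ1 and 0.608 and 1.13 CPM with panobinostat, a log2 difference of 5.38 ± 0.25 (edgeR adjusted p = 2.27e-12). With either partner alone it was low, at 0.329 and 0.411 CPM (JQ1) and 0.125 and 0.215 CPM (panobinostat). BFSP1, a lens filament protein, followed at 17.5 and 15.7 CPM against 0.792 and 1.29 CPM. SERTAD1, a regulator of CDK4 and E2F activity, was at 204 and 167 CPM with JQ1 and 21.6 and 16.7 CPM with panobinostat. TP53I3, an oxidoreductase induced by p53, was at 132 and 147 CPM against 15.7 and 13.1 CPM. FOXA1, a pioneer factor of endoderm-derived epithelia, was at 72.7 and 75.4 CPM against 8.73 and 9.97 CPM, with a log2 difference of 3.19 ± 0.11. The rule that chose these genes requires that the groups do not overlap. ARC, an activity-regulated cytoskeletal gene, was at 309 and 149 CPM with JQ1, and its log2 difference of 3.38 became 2.78 without the first JQ1 library. RCBTB2, NECAB2, HIST1H4H, HIST1H2BC, ADI1, SOCS1, HIST1H2BK and OSGIN1 complete the set, at log2 differences of 3.20 to 3.92. Without the first panobinostat library, NECAB2 moved from 3.89 to 4.64 and HIST1H2BC from 3.6 to 4.56.

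**Figure D2:**
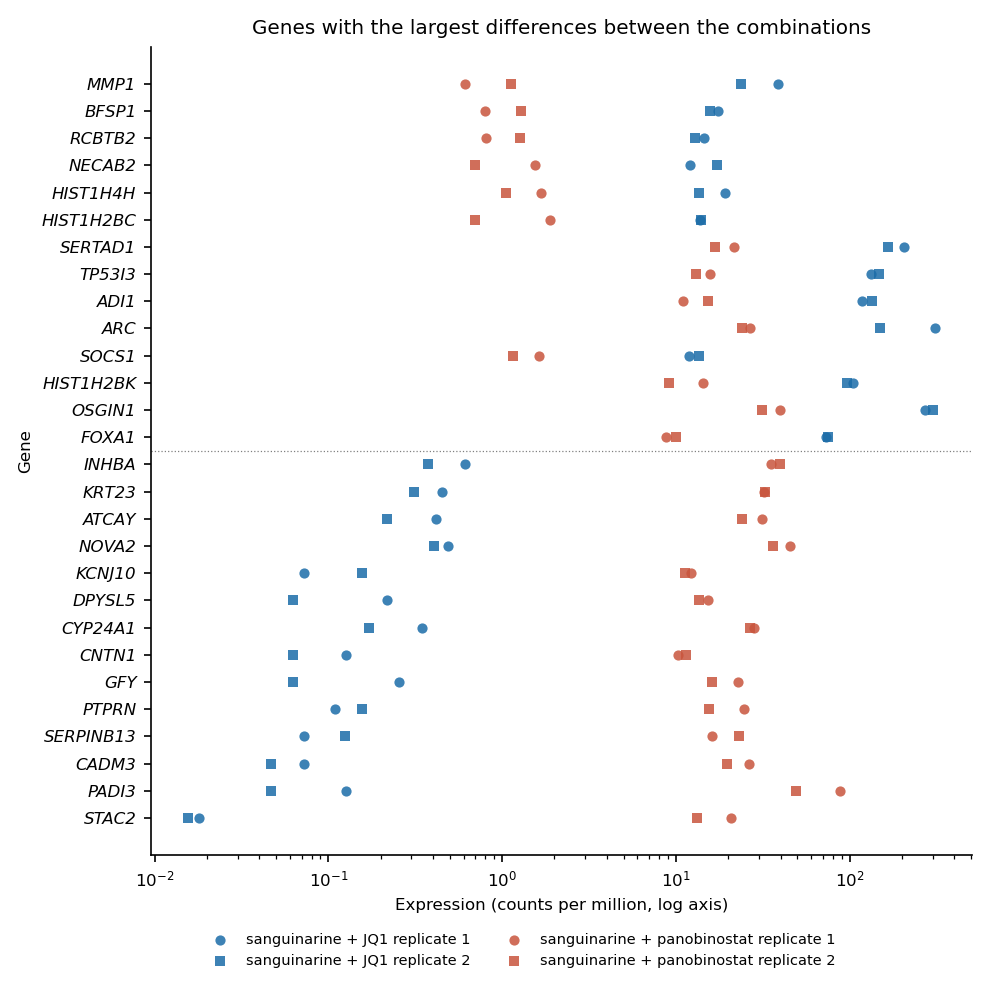
Expression in CPM (horizontal log axis) of the 28 protein-coding genes with the largest log2 differences in each direction, with at least 10 CPM in the higher combination, 1 point per library (circles replicate 1, squares replicate 2). The 14 genes under the dotted line lie under 1 CPM in both JQ1 libraries and at 10.3 CPM or more in both panobinostat libraries, while the 14 above it are at 0.608 CPM or more in every library.

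Most genes of the BET proteins and of P-TEFb were higher with JQ1. Of 16 listed, 15 were tested, 11 were higher, 1 was lower and 3 did not pass, with a median log2 difference of 0.56 against -0.04 over all genes. HEXIM1 (NCBI gene 10614), the inhibitor of P-TEFb and a standard pharmacodynamic marker of BET inhibitors, was at 528 and 531 CPM with JQ1 and 109 and 98.8 CPM with panobinostat. Its log2 difference was 2.55 ± 0.10 (edgeR adjusted p = 1.66e-13). MEPCE, which caps the 7SK RNA that holds HEXIM1 on P-TEFb, was at 163 and 163 CPM against 30.0 and 24.7 CPM (log2 2.77 ± 0.11). BRD2 itself was at 662 and 618 CPM against 162 and 155 CPM (log2 2.21 ± 0.10). The groups did not overlap at these 3 genes, as at 70.8% of all genes tested. BRD3 (0.62), AFF4 (0.84), CCNT1 (0.57) and CDK9 (0.38) differed less. HEXIM2, the paralog of HEXIM1, was the lower member, at -1.33. Without the first panobinostat library 3 members were lower and 10 higher. Without sanguinarine the gaps at HEXIM1 (3.49) and BRD2 (3.09) were wider: sanguinarine lowered HEXIM1 beside JQ1 (log2 -0.29) and raised it beside panobinostat (0.66), and the change of the gap, the interaction, was -0.95 ± 0.13 (edgeR adjusted p = 6.84e-05).

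Histone genes of the replication-dependent clusters were higher with JQ1 at 16 of the 21 tested, lower at 0, with a median log2 difference of 2.10. These mRNAs normally end in a stem-loop without a poly(A) tail, and the libraries were made from poly(A) RNA, and whether the reads come from tailed forms was not tested. HIST1H2BK, a gene of histone H2B, was at 104 and 96.0 CPM with JQ1 and 14.3 and 9.16 CPM with panobinostat (log2 3.28 ± 0.16, edgeR adjusted p = 3.8e-12). The linker histone HIST1H1C was at 84.4 and 102 CPM against 47.7 and 32.7 CPM (log2 1.40 ± 0.15). HIST2H2BE was at 34.5 and 36.3 CPM against 19.9 and 10.0 CPM, and its difference of 1.43 became 2.07 without the first panobinostat library. Summed over the list, expression was 459.7 and 460 CPM with JQ1 and 145.4 and 92.31 CPM with panobinostat. The sums were higher with JQ1 alone (1181 and 1161 CPM) than with panobinostat alone (138.3 and 144.4 CPM). The interaction was called in the lower direction at 11 of the 21 genes, against 4.38% of all genes tested, and in the higher direction at 0, against 6.84%. On the JQ1 side 13 of the 21 fell when sanguinarine was added, against 13.8% of all genes. HIST1H2BK went from 426 and 421 CPM to 104 and 96.0 CPM. Reads of such near-identical genes may be shared between copies. The replacement linker histone H1F0, a gene known to respond to deacetylase inhibitors, went the other way in the combinations but not between the single drugs. It was at 547 and 538 CPM with JQ1 alone and 352 and 372 CPM with panobinostat alone (log2 0.75). Its interaction was -1.15 ± 0.19 (edgeR adjusted p = 0.000371). In the combinations it was at 334 and 414 CPM with JQ1 and 659 and 467 CPM with panobinostat (log2 -0.40 ± 0.13, edgeR adjusted p = 0.0157). That call did not hold without the first library of either combination (adjusted p 0.277 and 0.517). Replication-independent histones as a list had 7 higher and 2 lower of 11, and 1 was lower without the first library of either combination. H2AFX, the histone phosphorylated at DNA breaks, was at 1.55 and H2AFZ at 1.42.

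Enzymes that write and erase histone acetylation differed unequally. Of 11 acetyltransferase genes 7 were higher with JQ1 and 1 lower, with EP300 at 103 and 94.7 CPM against 49.4 and 43.9 CPM (log2 1.28 ± 0.12) and CREBBP at 0.92. The 18 deacetylases and sirtuins split into 6 higher and 5 lower. SIRT1, a NAD-dependent deacetylase, was at 53.6 and 52.5 CPM with JQ1 and 13.2 and 18.8 CPM with panobinostat (log2 1.94 ± 0.12). HDAC1, a target of panobinostat, was lower with JQ1, at 98.0 and 102 CPM against 162 and 161 CPM (log2 -0.49 ± 0.09, edgeR adjusted p = 7.18e-05). HDAC3 (-0.97) and HDAC2 (-0.36) were lower and HDAC7 (1.56) higher. The list's counts moved with the library left out, to 4 higher and 3 lower without the first JQ1 library to 10 higher and 4 lower without the first panobinostat library and to 4 higher and 5 lower without the second, where its median of 0.09 became -0.09.

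**Figure D3:**
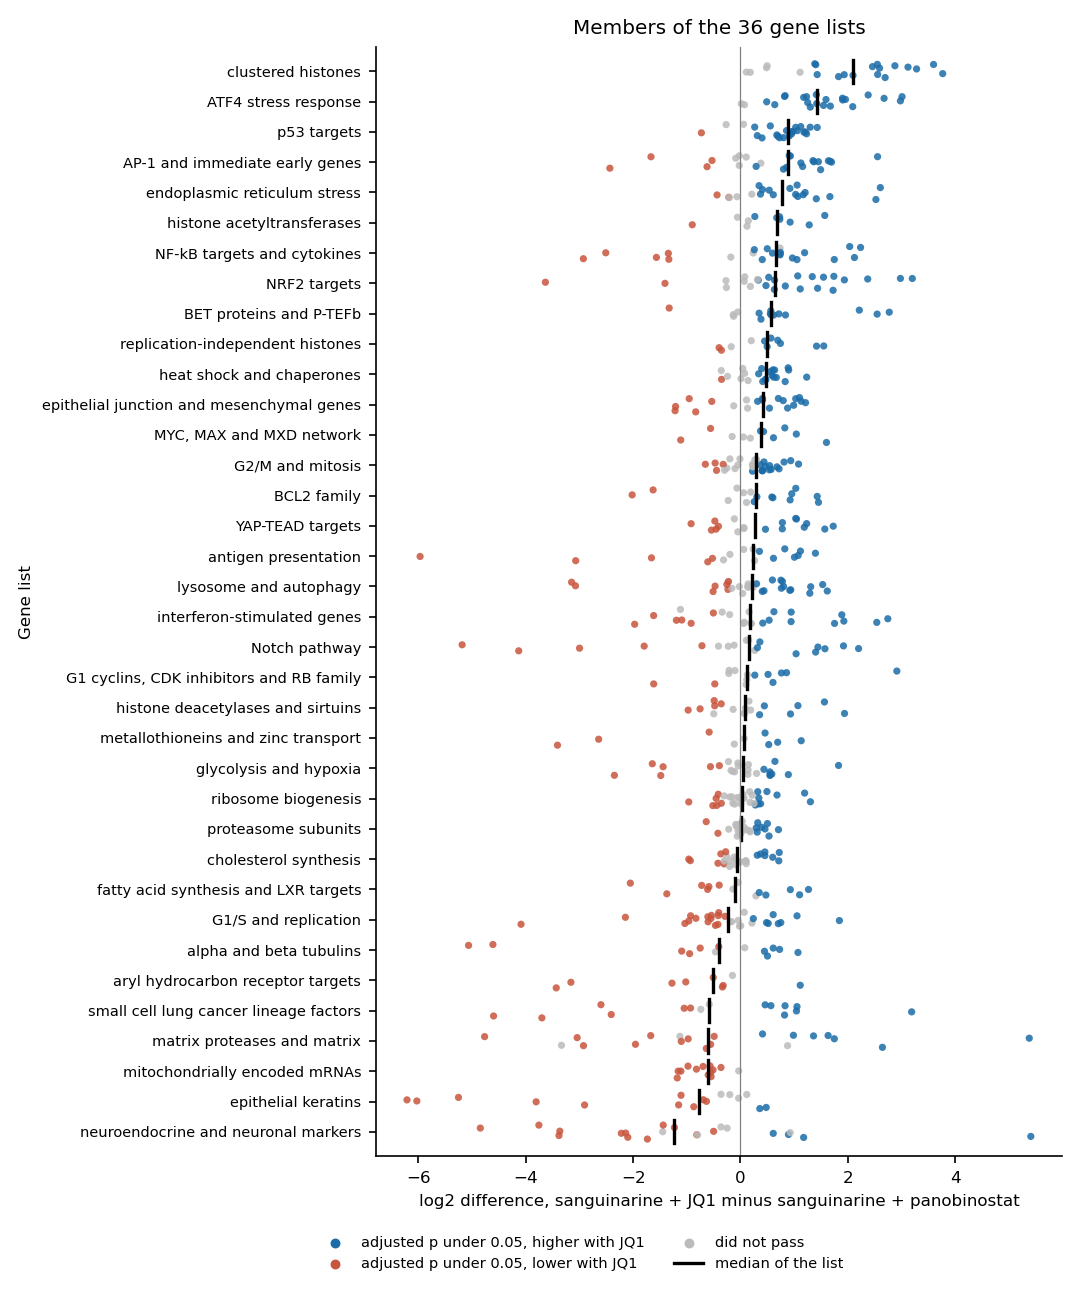
Log2 difference between the combinations (horizontal axis, positive is higher with JQ1) of every tested member of 36 gene lists (vertical axis), 1 point per gene, coloured where the adjusted p was under 0.05, with the list's median as a black bar. Clustered histones (median 2.10) and ATF4 targets (1.42) lie farthest to the right, and neuroendocrine markers (-1.23) and keratins (-0.78) farthest to the left.

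Genes of the amino acid stress response were higher with JQ1 almost throughout. ATF4 is a transcription factor made when translation is restrained, and it switches on amino acid synthesis and transport. Of 23 tested ATF4 targets and partners 21 were higher, 0 lower and 2 did not pass, with a median of 1.42. ASNS (NCBI gene 440), asparagine synthetase, was at 1681 and 1576 CPM with JQ1 and 242 and 348 CPM with panobinostat (log2 2.67 ± 0.13, edgeR adjusted p = 2.89e-12). The single drugs lay lower, at 307 and 322 CPM (JQ1) and 40.1 and 44.5 CPM (panobinostat), so sanguinarine raised ASNS by a log2 change of 2.29 beside JQ1 and 2.68 beside panobinostat. The gap between the partners was 3.06 without it, and its change was -0.39 ± 0.17 (adjusted p = 0.167). DDIT3, the proapoptotic factor CHOP, was at 83.7 and 84.1 CPM against 31.3 and 29.0 CPM (log2 1.67 ± 0.13). ATF5 was at 52.8 and 53.3 CPM against 7.96 and 7.16 CPM (log2 3.01 ± 0.12). ATF4 itself (1.59), the pseudokinase TRIB3 (2.38), the glutathione-degrading enzyme CHAC1 (2.09), the serine synthesis enzymes PHGDH (1.18) and PSAT1 (1.55) and the transporter subunit SLC3A2 (1.90) were higher as well. The transporter SLC7A5 (0.02) and the folate enzyme ALDH1L2 (0.07) did not pass.

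The ASNS promoter is printed because its known nutrient-sensing element is a textbook example of ATF4 binding. RefSeq (build GRCh38.p14) lists 2 starts for the gene, and only 1 of them has a match to TGATGNAA in the 250 bases before it. The window of that start was chosen because it holds the match. It is chr7:97872409-97872658 on the minus strand and reads from 5′ to 3′ as follows, with the match in capitals at 68 bases before the start.
ASNS: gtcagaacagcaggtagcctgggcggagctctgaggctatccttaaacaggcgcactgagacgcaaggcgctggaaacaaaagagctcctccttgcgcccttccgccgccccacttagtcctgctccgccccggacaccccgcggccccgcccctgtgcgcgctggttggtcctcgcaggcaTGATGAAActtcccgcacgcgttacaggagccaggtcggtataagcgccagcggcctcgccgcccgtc
TGATGNAA, sought on both strands, occurred in 3.14% of 35116 promoter windows of that length, and in none of the 20 windows of the genes with the largest differences. Only 11 of the 14 genes with the largest increases and 9 of the 14 with the largest decreases had a window. Those windows take the first listed start of each gene, whereas the 35116 can hold several starts of a gene. The motif was added after the data were seen. A match describes letters only.

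Endoplasmic reticulum stress genes showed 15 higher and 2 lower of 20 (median 0.77), and 1 was lower without either JQ1 library. HSPA5, the chaperone BiP, was at 1982 and 1706 CPM with JQ1 and 1007 and 1036 CPM with panobinostat (log2 1.05 ± 0.09, edgeR adjusted p = 4.51e-09). With the single drugs it did not pass the test, at 884 and 932 CPM and 1007 and 1050 CPM, and the interaction was 1.07 ± 0.12 (adjusted p = 6.81e-06). XBP1, the factor spliced by the sensor IRE1, was at 55.9 and 64.2 CPM against 9.83 and 14.3 CPM (log2 2.52 ± 0.13). DNAJB9, a BiP co-chaperone, followed at 2.61 ± 0.16 and HERPUD1, of the degradation pathway, at 1.67 ± 0.13. Heat shock and chaperone genes had 15 higher and 1 lower of 22 (median 0.47), and without the first panobinostat library the median was 0.36. HSPA1A was at 137 and 97.3 CPM against 96.2 and 72.8 CPM (log2 0.67 ± 0.15), and HSPA1B, a near-identical copy with which it may share reads, at 0.90. HSP90AA1 (0.01) and HSP90AB1 (0.08) did not pass.

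NRF2 targets were more often higher than lower with JQ1 in the combinations, which was not so between the single drugs. There 9 of 25 were higher and 11 lower, against 26.8% and 29.1% of all genes. NRF2 binds antioxidant response elements when thiols of its inhibitor KEAP1 are modified. Of 25 targets 17 were higher, 2 lower and 6 did not pass (median 0.64), and 4 were lower without the second panobinostat library. HMOX1 (NCBI gene 3162) differed by 1.94 ± 0.10 on the log2 scale (edgeR adjusted p = 8.96e-12) between the combinations and by 0.30 between the single drugs. SLC7A11, the cystine importer, was at 757 and 854 CPM with JQ1 and 72.8 and 164 CPM with panobinostat (log2 2.98 ± 0.21), and without the second panobinostat library, the higher of that pair, the value was 3.63. OSGIN1, an oxidative stress growth inhibitor, was at 269.7 and 302 CPM against 39.8 and 31.5 CPM (log2 3.20 ± 0.15). In the JQ1 combination all 3 genes were above every single-drug library. In the panobinostat combination HMOX1 was too, whereas OSGIN1 lay below JQ1 alone (43.2 and 43.7 CPM) and SLC7A11 to either side of it (135 and 126 CPM). HMOX1 had served as the check on the treatment labels. Its rise in the combinations, counted below too, is therefore not a separate result. TXNRD1, thioredoxin reductase (1.74), SRXN1, sulfiredoxin (1.73), GCLM, of glutathione synthesis (1.34), the ferritin light chain FTL (1.55) and AKR1C1 (2.37) were higher. NQO1, a quinone reductase, was at 954 and 1052 CPM against 485 and 584 CPM (log2 1.11 ± 0.10). The lower members were the aldo-keto reductases AKR1B10 (-3.63, under 3 CPM in every library, and -4.44 without the first JQ1 library) and AKR1C2 (-1.41), which shares long stretches of sequence with AKR1C1. An interaction was called at 20 of the 25, against 11.2% of all genes tested. At 18 of the 25 it was called with a gap more in favour of JQ1 in the presence of sanguinarine, against 6.84%. Addition of sanguinarine raised 21 of the 25 beside JQ1, against 16.2% of all genes. Beside panobinostat 9 rose and 4 fell, against 11.5% and 11.4% of all genes.

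**Figure D4:**
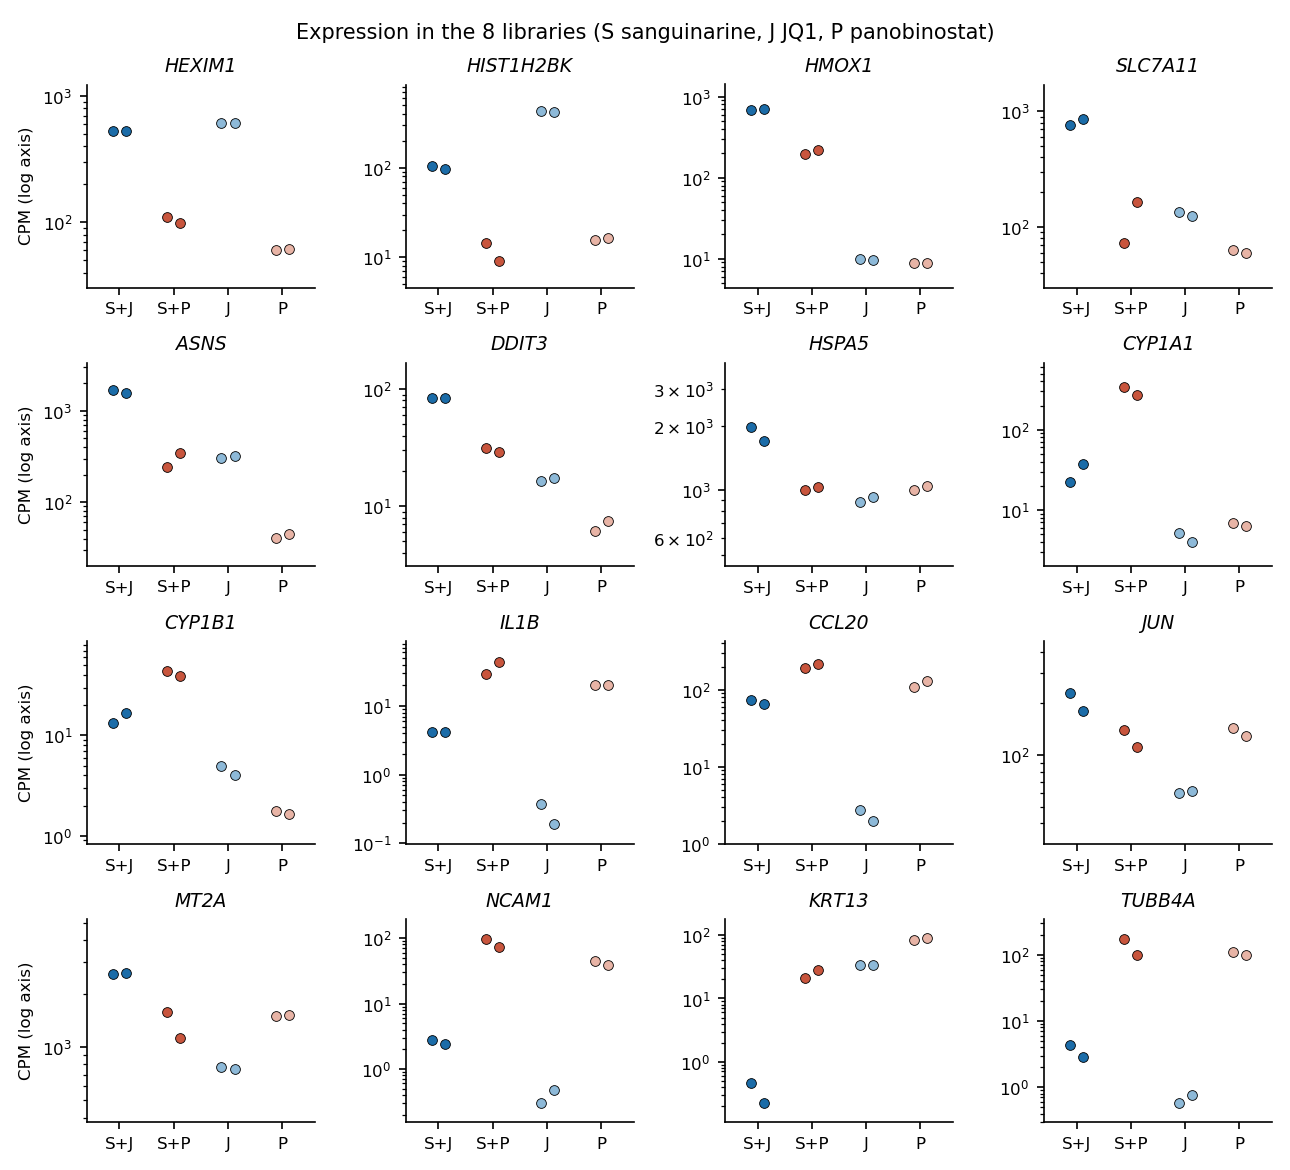
Expression in CPM (vertical log axes, scaled per panel) of 16 genes in the 8 libraries, 2 points per group: sanguinarine with JQ1 (S+J), sanguinarine with panobinostat (S+P), JQ1 (J) and panobinostat (P). HMOX1 is at 674 and 704 CPM in S+J against 195 and 220 CPM in S+P, and CYP1A1 is highest in S+P (341 and 270 CPM). HEXIM1 and HIST1H2BK are higher in both groups with JQ1 than in both with panobinostat. Every group holds JQ1 or panobinostat, so a rise with JQ1 and a fall with panobinostat cannot be told apart in these panels.

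Aryl hydrocarbon receptor targets were mostly lower with JQ1. The receptor binds planar aromatic compounds, moves to the nucleus with ARNT and induces enzymes of drug metabolism. CYP1A1 (NCBI gene 1543), its classic target, was at 22.4 and 37.4 CPM with JQ1 and 341 and 269.7 CPM with panobinostat, a log2 difference of -3.16 ± 0.21 (edgeR adjusted p = 2.82e-10). With the single drugs it was low and did not differ by the test, at 5.21 and 4.01 CPM (JQ1) and 6.93 and 6.31 CPM (panobinostat). Sanguinarine raised CYP1A1 beside either partner, by 2.61 with JQ1 and 5.42 with panobinostat, and the interaction was -2.81 ± 0.32 (adjusted p = 5.91e-06). CYP1B1, another monooxygenase under the receptor, was at 13.2 and 16.6 CPM against 43.6 and 39.0 CPM (log2 -1.28 ± 0.17). Between the single drugs CYP1B1 had the opposite order, at 4.91 and 3.99 CPM with JQ1 and 1.75 and 1.65 CPM with panobinostat. The receptor's repressor AHRR (-0.32), TIPARP (-0.51), ALDH3A1 (-1.02), UGT1A6 (-3.43, a gene that shares exons with its neighbours) and AHR itself (-0.34) were lower too. In all, 7 of 9 tested members were lower and 1 higher. NQO1, which is a target of NRF2 as well, was the higher member.

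The receptor is known to bind a core written GCGTG, and the CYP1A1 promoter is printed with that core in capitals. The window is the 250 bases before the RefSeq start (GRCh38.p14), chr15:74725529-74725778 on the minus strand, 5′ to 3′.
CYP1A1: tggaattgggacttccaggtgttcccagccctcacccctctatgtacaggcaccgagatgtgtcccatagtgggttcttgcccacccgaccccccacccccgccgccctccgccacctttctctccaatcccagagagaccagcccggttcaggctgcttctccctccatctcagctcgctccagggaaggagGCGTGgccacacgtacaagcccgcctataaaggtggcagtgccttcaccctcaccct
The match lay 57 bases before the start. GCGTG, also added after the data were seen, occurred on either strand in 32.2% of all windows, so its presence does not set the gene apart. In the genes with the largest differences it was found in 3 of 11 windows on the higher side and 3 of 9 on the lower side.

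p53 targets were higher with JQ1 at 21 of 24 (median 0.88), with 1 lower, or 2 without the second panobinostat library. CDKN1A, the inhibitor p21, was at 762 and 733 CPM with JQ1 and 508 and 438 CPM with panobinostat (log2 0.86 ± 0.10, edgeR adjusted p = 3.23e-07). BBC3, the death-promoting protein PUMA, was at 24.9 and 30.5 CPM against 14.5 and 8.98 CPM (log2 1.43 ± 0.21). PLK3 (1.30), SESN2 (1.23), TP53INP1 (1.21), FAS (1.18) and BAX (0.96) were higher, whereas the polo-like kinase PLK2 was lower (-0.73). MDM2, the ligase that degrades p53, was at 0.26 and lost its call without either JQ1 library (adjusted p 0.0517 and 0.11) or the first panobinostat library (0.249). The same direction held between the single drugs, where 22 of 24 were higher with JQ1, against 26.8% of all genes. Across the BCL2 family 9 of 16 were higher and 2 lower. The survival factor MCL1 was at 467 and 439 CPM with JQ1 and 234 and 277 CPM with panobinostat (log2 1.03 ± 0.09), while BCL2 was lower (-2.02, at most 2.16 CPM) and so was the death-promoting BMF (-1.63).

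Of 30 genes of G1/S and DNA replication 15 were lower and 8 higher with JQ1 (median -0.24). E2F2, an activator of S phase genes, was at 0.145 and 0.250 CPM with JQ1 and 3.54 and 4.40 CPM with panobinostat (log2 -4.09 ± 0.29, edgeR adjusted p = 4.81e-10). GINS2, of the replicative helicase, was at 3.72 and 4.28 CPM against 19.9 and 20.9 CPM (log2 -2.14 ± 0.12). TYMS, thymidylate synthase, was on the other side, at 28.6 and 29.3 CPM against 8.43 and 10.2 CPM (log2 1.84 ± 0.10), and E2F1 did not pass (0.00). G2/M genes had 15 higher and 4 lower of 30, among them KIF20A (1.08), AURKB (0.94) and MKI67 (0.81). Those counts rested on single libraries: they were 11 and 9 without the first panobinostat library, 22 and 3 without the second, and 15 and 2 without the second JQ1 library. G1 cyclins, CDK inhibitors and RB genes had 6 higher and 2 lower of 14, and 5 were lower without the first panobinostat library. CDKN1C, the inhibitor p57, was at 91.8 and 53.7 CPM with JQ1 and 13.02 and 9.12 CPM with panobinostat (log2 2.91 ± 0.25), and at 3.33 and 4.67 CPM and 5.40 and 5.81 CPM with JQ1 and panobinostat alone. MYC, a gene often lowered by BET inhibitors in blood cancers, was at 66.5 and 61.7 CPM with JQ1 and 55.7 and 58.1 CPM with panobinostat, and higher with JQ1 by 0.37 ± 0.09 (edgeR adjusted p = 0.0012). Between the single drugs MYC was lower with JQ1 (-0.37), and the interaction was 0.74 ± 0.12 (adjusted p = 0.000436). Of 11 tested genes of the MYC network 6 were higher and 2 lower, with the antagonists MXD4 (1.6) and MXD1 (1.04) higher and MXI1 (-1.11) lower.

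Of 22 tested NF-kB targets and cytokines 14 were higher with JQ1, 5 lower and 3 did not pass. IL1B was at 4.10 and 4.20 CPM with JQ1 and 28.9 and 44.1 CPM with panobinostat (log2 -2.93 ± 0.15, edgeR adjusted p = 5.63e-12). IL1A was at 13.7 and 15.9 CPM against 68.7 and 126 CPM (log2 -2.51 ± 0.17), and IL6 at 3.001 and 3.71 CPM against 10.1 and 12.8 CPM (log2 -1.57 ± 0.17). The chemokine CCL20 was at 73.7 and 66.3 CPM against 191 and 215 CPM (log2 -1.33 ± 0.14), and the apoptosis inhibitor BIRC3 was the other lower member (-1.34). At each of these cytokines the gap was wider without sanguinarine: IL1B differed by -5.95, IL1A by -4.61 and CCL20 by -5.49 between JQ1 and panobinostat alone, and all 3 interactions passed. CXCL8, interleukin 8, changed sides. It was at 109 and 92.7 CPM with the JQ1 combination and 43.0 and 76.7 CPM with the panobinostat combination (log2 0.97 ± 0.17), but at 12.1 and 14.2 CPM with JQ1 and 45.3 and 53.4 CPM with panobinostat alone (log2 -1.74). NFKB1, the p105 subunit, was at 60.4 and 59.3 CPM against 12.6 and 16.7 CPM (log2 2.24 ± 0.11), the inhibitor NFKBIA at 2.12 ± 0.12 and RELB at 2.03. RELA (0.24) and TNFAIP3 (-0.18) did not pass.

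AP-1 and immediate early genes had 15 higher and 4 lower of 24 (median 0.88), and 1 lower without the second JQ1 library. FOSL1, the subunit FRA1, was at 74.1 and 61.4 CPM with JQ1 and 13.2 and 13.3 CPM with panobinostat (log2 2.55 ± 0.12, edgeR adjusted p = 2.38e-12). FOS was at 104 and 65.5 CPM against 36.5 and 24.4 CPM (log2 1.67 ± 0.20) and JUND at 208 and 288 CPM against 107 and 67.4 CPM (log2 1.70 ± 0.18). JUN was at 231 and 181 CPM against 140.0 and 112 CPM (log2 0.91 ± 0.13). Between the single drugs JUN was lower with JQ1, at 60.4 and 61.8 CPM against 144 and 129.6 CPM, and the interaction was 1.90 ± 0.18 (adjusted p = 7.92e-07).

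Neuroendocrine and neuronal genes were more often lower than higher with JQ1. Of 30 listed, 21 were tested, 12 were lower, 4 higher and 5 did not pass, with a median of -1.23. Untested members failed the filter on low counts. Some tested ones may have passed it only through the group where they are high. The list's summed expression was not lower with JQ1, at 1157 and 961.6 CPM against 1094 and 808.6 CPM with panobinostat. NCAM1, the neural cell adhesion molecule CD56, was at 2.75 and 2.40 CPM with JQ1 and 97.1 and 72.3 CPM with panobinostat (log2 -4.85 ± 0.23, edgeR adjusted p = 2.42e-12). SYP, synaptophysin, was at 6.16 and 6.23 CPM against 35.3 and 27.2 CPM (log2 -2.14 ± 0.18). Chromogranin A was low in both groups, with CHGA at 0.145 and 0.234 CPM and 0.534 and 0.674 CPM, and did not pass. SNAP25 (-3.37), PCSK1 (-3.38) and SYN1 (-2.22) were lower and MAP2 (1.18) was higher. NEFM had 54 reads with JQ1 and 1 with panobinostat, a panobinostat to JQ1 ratio of 0.0211 (95% exact interval 0.000525 to 0.123). Lineage factors were mixed, with 7 higher and 6 lower of 15 tested. FOXA1 and YAP1 (1.04) were higher, and POU2F3, the factor of the tuft-cell-like subtype, was lower at 0.145 and 0.141 CPM against 3.85 and 4.22 CPM (log2 -4.60 ± 0.48). NKX2-1, a lung identity factor, was at -2.60, SOX2 at -3.70 (under 1.3 CPM in every library, and -5.82 and -2.80 without the first and second JQ1 library) and the Notch ligand DLL3 at -3.0.

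Tubulin genes moved in both directions. TUBB4A, a beta-tubulin of neurons and oligodendrocytes, was at 4.39 and 2.81 CPM with JQ1 and 173 and 101 CPM with panobinostat (log2 -5.07 ± 0.27, edgeR adjusted p = 1.41e-11), and TUBB2B, of developing brain, at 1.36 and 0.827 CPM against 35.3 and 25.4 CPM (log2 -4.61 ± 0.28). TUBB2A (-1.09) and TUBA1A (-0.95) were lower too, and TUBB4B (1.07), TUBB6 (0.73) and TUBA1B (0.45) higher. TUBB3, a beta-tubulin of neurons, was higher at 0.61, a call lost without the first JQ1 library (0.34) or the second panobinostat library (0.19). Of 13 tubulins 5 were higher and 6 lower, and the list's median of -0.40 turned to 0.43 without the first panobinostat library. Related tubulin genes may share reads.

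Keratins were lower at 10 of 16 and higher at 2 with JQ1 (median -0.78). KRT13, of stratified mucosal epithelia, was at 0.452 and 0.218 CPM with JQ1 and 21.2 and 28.6 CPM with panobinostat (log2 -6.03 ± 0.28, edgeR adjusted p = 2.15e-12). KRT13 was not low with JQ1 alone (34.5 and 34.1 CPM, against 84.4 and 89.7 CPM with panobinostat alone), and the interaction was -4.85 ± 0.35 (adjusted p = 2.27e-08). KRT14, of basal cells, was at 7.25 and 4.17 CPM against 51.1 and 46.6 CPM (log2 -2.90 ± 0.17), and KRT5, its partner, at -3.81. Of the simple epithelial keratins KRT18 was higher (0.48 ± 0.08), KRT19 lower (-0.69) and KRT8 did not pass (-0.04 ± 0.08). Matrix and protease genes had 7 higher and 10 lower of 20. Besides MMP1, the stromelysin MMP10 (2.64), urokinase PLAU (1.75) and MMP14 (1.63) were higher. Lower genes were MMP2, gelatinase A, at 0.181 and 0.218 CPM against 6.10 and 6.601 CPM (log2 -4.77 ± 0.40), tissue plasminogen activator PLAT at 14.2 and 13.2 CPM against 144 and 114 CPM (log2 -3.04 ± 0.13), and tenascin TNC (-1.96 ± 0.15). Junction and mesenchymal genes had 12 higher and 5 lower of 20, with 3 lower without the second JQ1 library. AXL, a receptor kinase, was higher (1.23 ± 0.08), fibronectin FN1 was lower at 1348 and 1215 CPM against 3589 and 3212 CPM (-1.21 ± 0.11) and E-cadherin CDH1 did not pass (0.13 ± 0.08). Vimentin, VIM, was lower (-1.22 ± 0.34), but its panobinostat libraries stood apart at 31.0 and 11.5 CPM and the call was lost without the first of them (log2 -0.27) or without the second JQ1 library (-0.92).

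Metallothioneins, small cysteine-rich proteins that bind zinc and copper, moved unequally. MT2A (NCBI gene 4502) was at 2569 and 2620 CPM with JQ1 and 1582 and 1127 CPM with panobinostat (log2 1.13 ± 0.13, edgeR adjusted p = 3.07e-07). MT1F was lower, at 2.49 and 2.19 CPM against 17.5 and 15.98 CPM (log2 -2.64 ± 0.25). MT1X was at 157 and 156 CPM against 333 and 202 CPM (log2 -0.58 ± 0.16), a call lost without the first panobinostat library (-0.12). Between the single drugs MT2A had the opposite order, 771 and 752 CPM with JQ1 and 1493 and 1513 CPM with panobinostat, and its interaction was 1.94 ± 0.18 (adjusted p = 4.69e-07). Over the list, which includes zinc transport, 4 of 9 tested genes were higher and 3 lower, and its median of 0.07 became -0.06 without the second panobinostat library. Metallothionein copies may share reads. Metal response elements carry the core TGCNCNC, and the MT2A promoter is printed to show how densely they can stand. The window is the 250 bases before the RefSeq start (GRCh38.p14), chr16:56608334-56608583 on the plus strand, 5′ to 3′, with the 7 matches on either strand in capitals.
MT2A: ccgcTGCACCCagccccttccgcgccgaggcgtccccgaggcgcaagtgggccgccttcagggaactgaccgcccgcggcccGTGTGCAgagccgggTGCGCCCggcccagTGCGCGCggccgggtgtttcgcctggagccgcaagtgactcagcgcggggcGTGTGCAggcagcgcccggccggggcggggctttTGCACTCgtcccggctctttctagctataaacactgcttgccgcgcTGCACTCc
Their first bases lay 246, 168, 153, 139, 88, 54 and 8 bases before the start. The core is short and was found in 49.1% of all windows, in 8 of 11 windows of the genes with the largest increases and in 3 of 9 of those with the largest decreases.

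Of the other motifs sought on both strands of the same windows, CCAAT was in 6 of 11 and 4 of 9 (32% of all) and GGGCGG in 7 of 11 and 3 of 9 (42.6% of all). TATAAA was in 2 and 1 (10.7%), CACGTG in 1 and 0 (6.34%), TGACGTCA in 2 and 0 (1.65%), TGANTCA in 1 and 1 (6.57%) and TGACNNNGC in 0 and 1 (10.9%). TGANTCA and TGACNNNGC can match the same letters. These are counts without a test.

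Mitochondrially encoded mRNAs were lower with JQ1 at 12 of 13, with ND1 not passing (median -0.60). The median was -0.35 without the first JQ1 library, -0.93 without the second and -0.32 without the first panobinostat library. COX1, of cytochrome oxidase, was at 1816 and 2433 CPM with JQ1 and 6215 and 4774 CPM with panobinostat (log2 -1.18 ± 0.13, edgeR adjusted p = 1.83e-07), and ND4, of complex I, at 1499 and 2169 CPM against 5302 and 3729 CPM (log2 -1.11 ± 0.15). The 13 mRNAs took 1.04% and 1.44% of reads with JQ1 and 2.9% and 2.04% with panobinostat, against 3.61% to 4.51% with the single drugs. Only 6 genes were called without the first JQ1 library and 8 without the first panobinostat library, with no member higher in either. The part of RNA quality in this was not tested.

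The partner difference was broadly alike with and without sanguinarine. JQ1 and panobinostat alone differed at 12443 genes (55.9%), and across the 22263 genes the log2 differences of the combinations and of the single drugs had a Pearson correlation of 0.739 and a Spearman correlation of 0.763. The 4 libraries of each comparison are not shared, genes are not independent replicates, and the value is a description. Genes called in both comparisons in the same direction numbered 9070, which is 77% of the genes called between the combinations and 72.9% of those called between the single drugs, and 183 genes were called in opposite directions.

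A change of the partner gap by sanguinarine, tested as the interaction, was called at 2497 genes (11.2%). At 1295 of them the gap kept its sign and was smaller with sanguinarine, at 402 it kept its sign and was larger, and at 800 the sign differed. The number called was 4136 without the first and 4984 without the second panobinostat combination library, and 1463 without the second library of panobinostat alone. Without the first or the second library of JQ1 alone it was 1579 or 1494. RNASE7, an antimicrobial ribonuclease of skin, shows a gap that closed: it was at 1.57 and 1.45 CPM with JQ1 and 29.1 and 28.3 CPM with panobinostat, and at 25.1 and 22.5 CPM and 29.3 and 29.5 CPM with sanguinarine added. IGF2BP3, an oncofetal RNA-binding protein, rose from 0.0939 and 0.0725 CPM with JQ1 to 2.39 and 2.14 CPM with the JQ1 combination, below the 7.07 and 13.02 CPM of the other combination. VLDLR, a lipoprotein receptor, went from 2.00 and 2.35 CPM to 39.9 and 37.2 CPM on the JQ1 side and from 15.1 and 13.4 CPM to 23.2 and 26.7 CPM on the panobinostat side, so the order of the partners turned. FGD3, a Cdc42 exchange factor, showed a gap that opened, falling from 14.6 and 14.7 CPM to 1.63 and 1.94 CPM beside JQ1 while panobinostat libraries went from 25.8 and 24.1 CPM to 15.3 and 15.9 CPM.

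**Figure D5:**
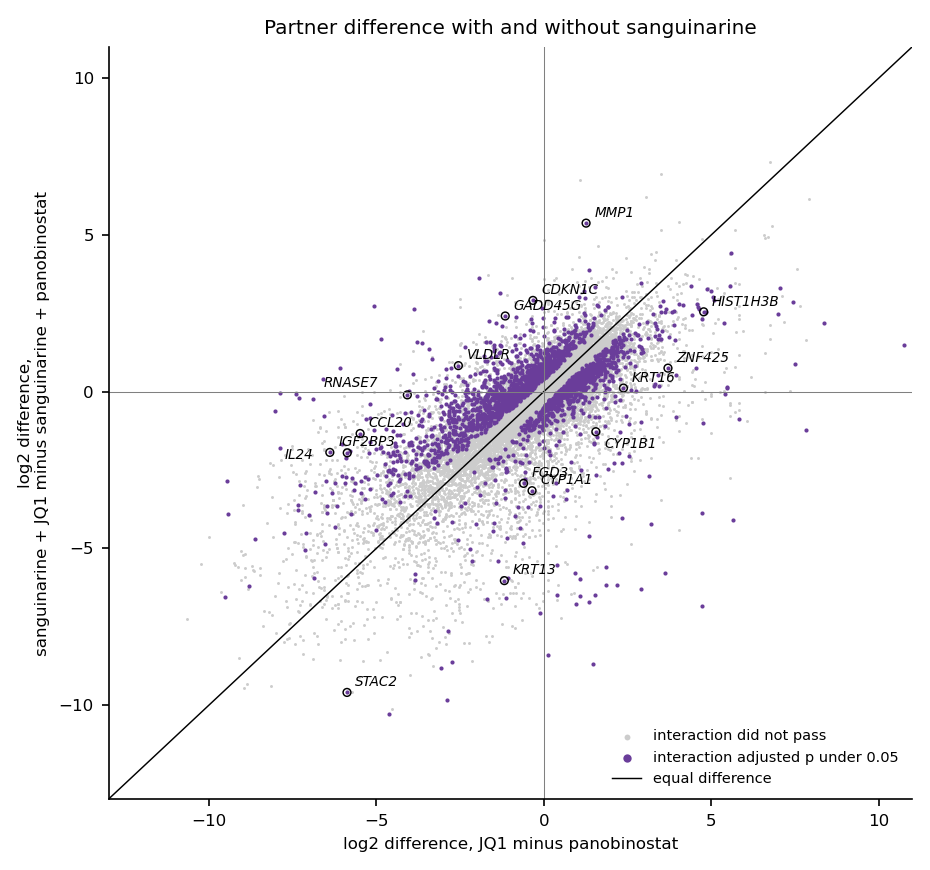
Log2 difference between JQ1 and panobinostat with sanguinarine (vertical axis) against the same difference without it (horizontal axis), 1 point per tested gene, with the 2497 genes whose interaction had an adjusted p under 0.05 in purple and the line of equal differences in black. The 16 labelled genes have the largest interactions, 8 in each direction, among protein-coding genes with at least 10 CPM in some group. MMP1 and CDKN1C lie above the line and STAC2, KRT13 and CYP1A1 below it.

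Sanguinarine changed some genes in the same direction beside either partner. Added to JQ1 it changed 6681 genes (30%) and added to panobinostat 5107 (22.9%), and 2482 were called in the same direction in both, 1225 higher and 1257 lower, while 233 were called in opposite directions. Across genes the changes beside the 2 partners had a Pearson correlation of 0.279 and a Spearman correlation of 0.37, as a description. Without the second library of panobinostat alone the panobinostat count was 2088, and without the second library of that combination 7739. The genes shared are 37.2% of the first set and 48.6% of the second. Among those ranked first, ANGPTL4, an inhibitor of lipoprotein lipase, rose by 4.02 beside JQ1 and 3.67 beside panobinostat, and HSPA6, a strictly inducible heat shock protein, by 5.30 and 3.66. SPRR2A, a cornified envelope protein, rose by 7.42 and 4.78, and BCL2A1, a BCL2 relative, by 5.54 and 2.55. BCL2A1 reached 11.2 and 5.48 CPM and 8.30 and 14.3 CPM in the combinations, ranges that overlap. DKK1, a secreted Wnt inhibitor, fell by 2.49 and 1.52, and at 112 and 106 CPM against 342 and 464 CPM it also differed between the combinations (log2 -1.68 ± 0.10, edgeR adjusted p = 9.15e-11). KRT14, OLR1, a scavenger receptor, and ANKRD2 fell beside both partners too. The interaction passed at BCL2A1 (2.99), DKK1 (-0.97) and KRT14 (-1.15), where the size of the change thus differed between the partners. It did not pass at ANGPTL4 (0.34), HSPA6 (1.64) and ANKRD2 (-0.09). Those gains and losses use the combination libraries of the main comparison and are set side by side only.

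The combinations were closest at genes such as ACTB, beta-actin, at 9219 and 6966 CPM with JQ1 and 9577 and 9041 CPM with panobinostat. Fold changes were computed after scaling for library composition, which is why these CPM differ slightly although the log2 difference was -0.0006, with a 95% interval of -0.22 to 0.22. TPR of the nuclear pore was at -0.0016, the proteasome subunit PSMB4 at 0.0019, NME2 at 0.0027 and CHMP1B at 0.0028. For BZW1 the value of -0.0023 lay between unequal duplicates: its panobinostat libraries were at 312 and 482 CPM, and leaving out the first gave -0.25 and the second 0.30 (edgeR adjusted p = 0.0164 and 0.00535).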

How the data were processed

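Poly(A) RNA of 16 libraries (8 groups of 2) was sequenced, and 2 tables of 8 libraries with 44591 gene rows were deposited. Per the submitters' processing notes, STAR 2.5.1, DESeq2 and GRCh38 were used, and no label or header names the program that counted reads. The deposited raw counts per gene entered the tests. The deposited RPKM values equal the counts divided by gene length and library total (largest relative deviation 2e-13) and were not tested. CPM were computed from the counts and their library totals.

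Counts were fitted with edgeR 4.0.16 (R 4.3.3) by quasi-likelihood, with a term per group over the 16 libraries, TMM scaling and the filterByExpr filter (22263 genes), and p-values were adjusted by Benjamini-Hochberg over all of them at 0.05. DESeq2 1.42.0, limma 3.58.1, other scaling, no filter, fewer libraries, a replicate block and leaving out each library were the alternatives. The procedure was tested on simulated counts with the same spread per gene in every group, so that test does not cover groups of unequal spread. The edgeR fit likewise takes 1 spread per gene over all groups. Limma voom gave each library of the panobinostat combination a weight of 0.229, against 0.724 to 1.67 elsewhere. With those weights 8790 genes differed between the combinations, against 11781.

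The genes and lists were chosen with earlier results of these data known. Named genes are the 14 largest differences in each direction, fixed examples and the 3 largest called members of each list, the 8 largest interactions and shared changes in each direction and the 6 most equal genes. Other list members named were chosen after their values were seen. Some items are not reported here.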

Additional observations from a re-analysis of the deposited data

Results flagged for a closer look

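The difference between JQ1 and panobinostat was itself changed by sanguinarine at 2497 genes, by the interaction term of the edgeR fit. Of the genes named for it, those with a partner gap shifted towards JQ1 by sanguinarine were IGF2BP3 (log2 4.45), the chemokine CCL20 (4.15), MMP1 (4.12), RNASE7 (3.97), the cytokine IL24 (3.92), the stress gene GADD45G (3.57), VLDLR (3.38) and the CDK inhibitor CDKN1C (3.24). Those shifted towards panobinostat were KRT13 (-4.85), STAC2 (-3.72), the zinc finger gene ZNF425 (-2.96), CYP1B1 (-2.83), CYP1A1 (-2.81), FGD3 (-2.32), KRT16 (-2.26) and the histone gene HIST1H3B (-2.23).

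Some of these calls rested on single libraries or on the test. MMP1 was at 3.70 with an adjusted p of 0.0579 by edgeR without the second library of panobinostat alone. STAC2 missed the threshold by edgeR without the second library of JQ1 alone (adjusted p = 0.168) and without the first (0.0751) or second (0.106) JQ1 combination library, and by limma voom with library weights (0.131). HIST1H3B missed it by limma voom (0.104).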

How the results depend on the processing

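The number of genes differing between the combinations stayed within 8790 to 11906 over all alternatives run (11781 as reported). The interaction count of 2497 fell to 1276 with only the second table and to 1525 with a replicate block in that table, and ran from 1463 to 4984 when 1 library was left out. Its share of higher calls was 61% as reported, 74.8% with the second table and 74.6% with the block. The count for sanguinarine added to panobinostat, 5107 as reported, was 2526 by limma voom with library weights, 3205 with the second table, 1936 with only the groups compared, and 2088 to 7739 when 1 library was left out. The cause was not tested. BZW1 changed sign without the second panobinostat combination library, at 0.2984, and was -0.2472 without the first.

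Duplicate differences correlated between groups at -0.032 to 0.085, highest between panobinostat alone and sanguinarine with panobinostat. With 1 difference per group and many genes of few reads, these values cannot decide whether replicate numbers pair the libraries. With the replicate block, 10860 genes differed between the combinations, against 10695 in the second table without it. Another scaling moved the median of all genes from -0.04 to -0.085. Only 2 libraries a group limit every comparison.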

Other observations

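Cholesterol synthesis genes showed 7 higher and 6 lower of 26 between the combinations, a split that was 4 and 3 without the second JQ1 library, 6 and 3 without the first, and turned to 5 and 8 without the second panobinostat library and to 7 and 8 by DESeq2. Between the single drugs 14 were higher and 2 lower with JQ1, against 26.8% and 29.1% of all genes. An interaction in the lower direction was called at 10 of the 26, against 4.38%. Addition of sanguinarine lowered 12 beside JQ1, against 13.8% of all genes, and 2 beside panobinostat, against 11.4%.

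Glycolysis and hypoxia genes had 8 higher and 6 lower of 24, but 14 and 6 without the first panobinostat library and 7 and 11 without the second. Lysosome and autophagy genes had 14 higher and 7 lower of 30, with 4 lower without the first JQ1 library. Interferon-stimulated genes had 10 higher and 6 lower of 24, antigen presentation genes 7 and 5 of 17 (6 and 3 without the second JQ1 library, 8 and 3 without the first panobinostat library), Notch pathway genes 8 and 5 of 19, and YAP-TEAD targets 9 and 5 of 18. Fatty acid synthesis and LXR targets had 5 higher and 6 lower of 14. Ribosome biogenesis genes had 9 higher and 6 lower of 30, with 3 lower without the first JQ1 library. Of 27 proteasome subunits 8 were higher and 2 lower, with 5 higher without the first JQ1 library and 6 lower without the first panobinostat library.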
